A study of Mus musculus with 12 samples.

Results

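The genes described are 10 that build, load and regulate the MHC class I molecule: H2-K1, H2-D1, B2m, Tap1, Tap2, Tapbp, Nlrc5, Psmb8, Psmb9 and Erap1. They were taken by gene symbol, and all 10 were among the 26742 genes of the count table. RNA was sequenced from mouse embryonic stem (ES) cells of a 129 or a B6J background, all labelled male, grown with serum and leukaemia inhibitory factor (LIF). The cells received either the solvent DMSO or 1 µM PD 0325901, an inhibitor of the kinase MEK, which activates ERK, every day until day 5. Each background was given both treatments, which makes 4 groups of 3 libraries each. The libraries were poly(A) RNA from a stranded kit and held 62634533 to 96341637 counts each. The labels name no cell line or clone, so background and line cannot be told apart. Separate cultures for the replicates are not stated, and the p-values therefore rest on library spread that may be technical.

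A class I molecule is a heavy chain, encoded by H2-K1 or H2-D1 among others, held together with β2-microglobulin (B2m) and a short peptide. The peptide is cut by the proteasome, in which Psmb8 and Psmb9 are inducible catalytic subunits that replace Psmb5 and Psmb6. It is pumped into the endoplasmic reticulum by the Tap1 and Tap2 transporter, trimmed by the aminopeptidase Erap1, and loaded onto the heavy chain with help from tapasin (Tapbp). Nlrc5 is a transactivator that binds class I promoters, and interferons raise most of these genes. ES cells are known for low surface class I.

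H2-K1, Tap2, Psmb8, Psmb9 and Erap1 fell with the inhibitor in both backgrounds. Tap1, Tapbp and Nlrc5 fell in 129 and missed the threshold in B6J, and H2-D1 and B2m missed it in both. In 129 cells 8 of the 10 genes fell and 0 rose, and in B6J cells 5 fell and 0 rose, by edgeR's quasi-likelihood test with Benjamini-Hochberg adjusted p under 0.05 over 16627 genes. Among all genes tested, 18.2% fell and 17.4% rose in 129, and 16.5% fell and 14.6% rose in B6J. The 10 genes were chosen with earlier results of these data known, so counts above these shares are not independent support. The median log2 fold change of the 10 genes was -1.59 in 129 and -0.75 in B6J, beside -0.01 and 0.00 over all genes. All 10 passed the filter on low counts in every comparison. This fit used no replicate block. With replicate number as a block in a fit of the 129 libraries alone, the same 8 genes fell and B2m rose (adjusted p = 0.00193). An alternative chosen after seeing the data left out the library of each group that stood farthest from the others. Under it 10 of the 10 genes were called in 129 (9 fell and B2m rose) and 8 in B6J (7 fell and B2m rose). Calls over all genes rose as well, from 5930 to 8590 in 129 and from 5166 to 7583 in B6J. Leaving out the farthest library narrows the spread within each group by design. More calls follow from that step, and the adjusted p-values of this fit, here and below, are likely too low.

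**Figure D1:**
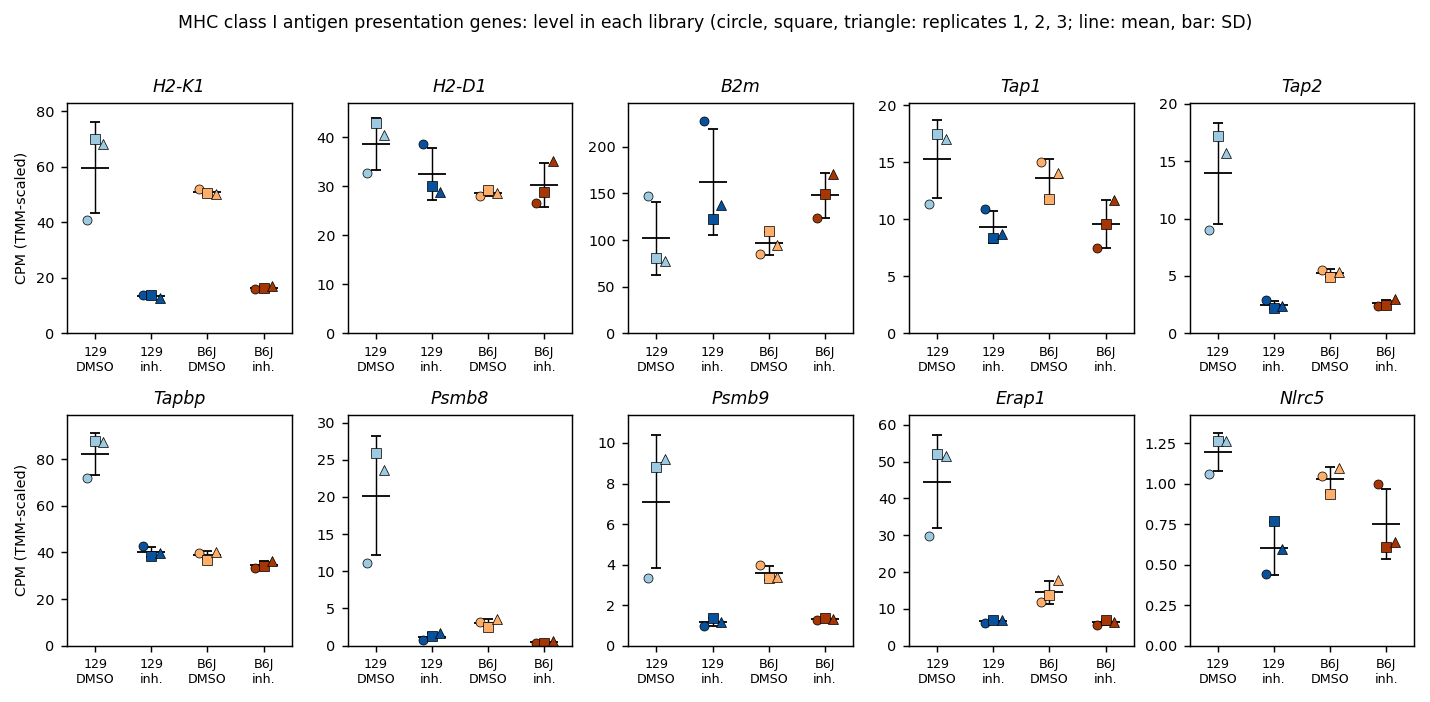
Level of each of the 10 genes in every library, in CPM (TMM-scaled counts, linear axis from 0), with the group mean as a line and the SD as a bar (n = 3). For Psmb8, Psmb9, Erap1, Tap2 and H2-K1 the inhibitor libraries lie below all DMSO libraries of the same background, while the H2-D1 groups overlap.

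Levels are given in CPM, the counts per 1000000 of a library after TMM scaling. Several checks of the samples bear on these values. ES cell markers were high in every library, with a sum over 14 genes of 3434 to 6201 CPM, and 10 of 14 rose in 129 and 8 of 14 in B6J, where 1 fell. Of 14 genes known to follow MEK and ERK activity, 12 fell in 129 and 13 in B6J. The summed level of 20 fibroblast markers was 2369 to 4648 CPM in 129 with DMSO and 5744 to 9072 CPM in 129 with the inhibitor, and 14 of the 20 rose. In B6J it was 3545 to 4187 CPM with DMSO and 5389 to 8916 CPM with the inhibitor, and 11 of the 20 rose. Of 12 leukocyte markers 6 were under 1 CPM in all libraries, and the sum was at most 26.9 CPM. In 129 with DMSO, replicate 1 held 6793 CPM of 14 primitive endoderm markers, against 470.4 and 473.1 CPM in the other replicates. The libraries farthest from the others of their group were replicate 1 of 129 with DMSO, of 129 with the inhibitor and of B6J with DMSO, and replicate 3 of B6J with the inhibitor. In bulk RNA, fewer cells of a type and less RNA per cell cannot be told apart.

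Most of the genes, 7 of 10, lie in or beside the MHC on chromosome 17. In GENCODE M21 on GRCm38 these are H2-K1 (chr17:33996017-34000347, minus strand), Psmb9 (chr17:34181987-34187764, minus), Tap1 (chr17:34187553-34197225, plus), Psmb8 (chr17:34197721-34201454, plus), Tap2 (chr17:34203527-34216321, plus), Tapbp (chr17:33915899-33929292, plus) and H2-D1 (chr17:35262730-35267499, plus). B2m lies on chromosome 2 (chr2:122147686-122153083, plus), Nlrc5 on chromosome 8 (chr8:94434356-94527272, plus) and Erap1 on chromosome 13 (chr13:74639568-74693201, plus). Exons of Tap1 and Psmb9 overlap by 212 bases on opposite strands, and 11.5% of Erap1 exon bases lie under exons of Cast on the other strand. Tapbp shares 29.0% of its exon bases with Zbtb22 and Gm19412, Tap2 shares 18.5% with Gm15821 and Gm20496, and Psmb8 shares 14.7% with Gm20496. Of these genes Gm19412 and Gm20496 are not in the count table. The share with Zbtb22 is 4.11% of Tapbp, and that with Gm15821 is 14.1% of Tap2. Strand use in the counting is not given in the sources used here, and reads in these stretches may be split or lost. Of the 50-base stretches of the H2-K1 transcripts 9.63% also occur in other genes, and of those of H2-D1 12.8%, above all class I relatives.

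The promoters are shown because genes that sit in similar or shared promoters had different fold changes. Each is 300 bases, from 250 before to 50 after the annotated start, taken from RefSeq on GRCm38.p6, where 8 of the 10 genes had an entry and Tap2 and Nlrc5 had none. Capitals mark matches, on either strand, to GAAANNGAA (interferon regulatory factor-like), TTCNNNGAA (the interferon-gamma-activated GAS element), GGGNNTTCC (NF-kB-like) and TGACGC (the CRE-like X2 box). A match describes the letters and does not show a bound site. The strings are narrow, so the lack of a match does not show that an element of that kind is absent. H2-K1 is chr17:34000298-34000597 on the minus strand, H2-D1 chr17:35262844-35263143 plus, B2m chr2:122147437-122147736 plus, Tap1 chr17:34187306-34187605 plus, Psmb8 chr17:34197945-34198244 plus and Erap1 chr13:74639603-74639902 plus.
H2-K1: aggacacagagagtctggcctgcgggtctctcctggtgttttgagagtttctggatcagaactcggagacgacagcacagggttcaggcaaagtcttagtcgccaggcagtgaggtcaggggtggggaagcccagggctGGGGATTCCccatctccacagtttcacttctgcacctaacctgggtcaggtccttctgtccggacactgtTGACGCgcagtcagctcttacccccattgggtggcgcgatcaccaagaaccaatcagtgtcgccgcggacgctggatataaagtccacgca
H2-D1: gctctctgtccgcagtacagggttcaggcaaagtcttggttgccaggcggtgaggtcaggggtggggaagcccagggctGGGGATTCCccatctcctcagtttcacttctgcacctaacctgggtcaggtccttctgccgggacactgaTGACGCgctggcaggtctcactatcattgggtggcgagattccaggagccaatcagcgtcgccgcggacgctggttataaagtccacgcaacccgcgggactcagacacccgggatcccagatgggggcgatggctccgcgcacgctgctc
B2m: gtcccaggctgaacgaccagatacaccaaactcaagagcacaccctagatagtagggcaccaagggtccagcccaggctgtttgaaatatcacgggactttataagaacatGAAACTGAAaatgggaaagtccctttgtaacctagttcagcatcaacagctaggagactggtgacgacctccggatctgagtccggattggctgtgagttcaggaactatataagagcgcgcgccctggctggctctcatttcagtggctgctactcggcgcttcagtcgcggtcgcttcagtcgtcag
Tap1: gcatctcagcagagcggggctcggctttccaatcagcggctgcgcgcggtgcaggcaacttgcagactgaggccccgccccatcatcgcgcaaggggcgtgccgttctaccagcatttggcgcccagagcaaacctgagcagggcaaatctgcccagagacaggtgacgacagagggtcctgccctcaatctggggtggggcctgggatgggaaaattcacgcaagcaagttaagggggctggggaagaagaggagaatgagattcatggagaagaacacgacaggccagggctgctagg
Psmb8: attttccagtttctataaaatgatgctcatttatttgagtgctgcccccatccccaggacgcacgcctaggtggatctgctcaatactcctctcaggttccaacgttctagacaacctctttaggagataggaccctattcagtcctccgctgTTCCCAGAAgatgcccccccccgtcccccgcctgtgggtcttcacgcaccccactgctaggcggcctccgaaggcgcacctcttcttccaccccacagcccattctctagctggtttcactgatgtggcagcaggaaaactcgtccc
Erap1: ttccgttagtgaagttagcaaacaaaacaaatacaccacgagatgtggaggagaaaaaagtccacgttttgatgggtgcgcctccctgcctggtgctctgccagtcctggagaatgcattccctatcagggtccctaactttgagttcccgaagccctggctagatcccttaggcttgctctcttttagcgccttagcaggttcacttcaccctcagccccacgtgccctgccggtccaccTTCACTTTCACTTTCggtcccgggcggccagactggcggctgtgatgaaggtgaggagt

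The H2-K1 and H2-D1 promoters matched at 214 of 239 aligned bases (89.5%), and both held the GGGNNTTCC and TGACGC matches and the CCAAT letters of a Y box. Of 32851 RefSeq mouse promoters of this length, 5.8% held GGGNNTTCC, 7.4% TGACGC and 37.4% CCAAT. The B2m promoter held 1 GAAANNGAA match and Erap1 held 2 that overlap, a motif found in 8.6% of promoters. The Psmb8 promoter held 1 TTCNNNGAA match, found in 8.3%. The Tap1 and Psmb9 windows are the same 275 bases read on opposite strands, and among the motifs searched they held CCAAT only. Tapbp likewise held CCAAT only. The ETS letters CCGGAAG, in 8.9% of promoters, and the AP-1 letters TGANTCA, in 7.8%, had no match in the windows of these 8 genes.

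Of the heavy chains, H2-K1 fell in both backgrounds and H2-D1 passed the test in neither. H2-K1 stood at 41.0, 70.1 and 68.0 CPM in the 129 DMSO libraries (replicates 1, 2 and 3, the order used throughout) and at 13.8, 14.0 and 12.9 CPM in the 129 inhibitor libraries. The B6J levels were 51.9, 50.6 and 50.2 CPM with DMSO and 15.9, 16.3 and 17.1 CPM with the inhibitor. All inhibitor libraries lay far below all DMSO libraries, and the replicates of B6J lay close together. The fall was 4.41-fold in 129 (log2 -2.14, SE 0.165, adjusted p = 3.81e-06) and 3.10-fold in B6J (log2 -1.63, SE 0.162, adjusted p = 2.29e-05).

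H2-D1, the heavy chain whose promoter is close to that of H2-K1, stood at 32.7, 42.8 and 40.4 CPM in 129 with DMSO and at 38.6, 30.1 and 28.8 CPM with the inhibitor. B6J libraries gave 28.1, 29.2 and 28.6 CPM with DMSO and 26.5, 28.9 and 35.1 CPM with the inhibitor. The groups overlapped in both backgrounds. The log2 fold change was -0.25 in 129 (SE 0.140, adjusted p = 0.188) and 0.07 in B6J (SE 0.140, adjusted p = 0.731). Without both 129 libraries numbered 1 the 129 value was -0.50 (adjusted p = 0.00764).

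The light chain B2m, the most abundant of the 10 per kilobase of exon in every group, gave higher values with the inhibitor that missed the threshold. It stood at 147, 81.2 and 77.7 CPM in 129 with DMSO and at 227, 122 and 138 CPM with the inhibitor. In B6J it stood at 85.5, 109.6 and 94.7 CPM with DMSO and 123, 149.6 and 171 CPM with the inhibitor. The 129 groups overlapped through the high DMSO replicate 1, and the B6J groups did not overlap. The log2 fold change was 0.67 in 129 (SE 0.270, adjusted p = 0.0737) and 0.61 in B6J (SE 0.270, adjusted p = 0.109). In 129 it rose without replicate 1 of the DMSO group (1.03, adjusted p = 0.00507), without replicate 2 of the inhibitor group (0.85, adjusted p = 0.0494) and with DESeq2 (0.68, adjusted p = 0.0386). When only the B6J libraries were fitted it rose in B6J (adjusted p = 0.0136), as it did with the first 129 DMSO library left out (adjusted p = 0.0354).

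B2m moved with the fibroblast markers across libraries. In 4 of 4 groups the library with the largest sum of fibroblast markers also had the highest B2m, and for H2-D1 this held in 3 of 4 groups. For H2-K1 and Psmb8 it held in 1 of 4, for Tap1, Tap2 and Tapbp in 2 of 4, and for Nlrc5, Psmb9 and Erap1 in 0 of 4. In 3 of 4 groups that library instead had the lowest Nlrc5, Psmb8 and Psmb9. It was lowest in 2 of 4 for Tap1, Tap2, Tapbp and Erap1, in 1 of 4 for H2-K1 and H2-D1 and in 0 of 4 for B2m. With the mean log2 level of the 20 fibroblast markers as a covariate, the B2m response became -0.45 in 129 (adjusted p = 0.0154) and -0.22 in B6J (adjusted p = 0.116), so its direction turned. H2-K1 still fell with that covariate (log2 -1.66 in 129, adjusted p = 0.000195, and -1.30 in B6J, adjusted p = 0.00026). The part of fibroblasts in the B2m values was not tested beyond this fit, in which the covariate itself differs between the treatments. The labels name no feeder layer, so the source of the fibroblast markers is not known. In 129 with DMSO, replicate 1 had the most fibroblast markers (4648 CPM) and also 6793 CPM of primitive endoderm markers. The 2 marker sets cannot be told apart there. With replicate number as a block in a fit of the 129 libraries alone, B2m rose in 129 (0.68, adjusted p = 0.00193).

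**Figure D2:**
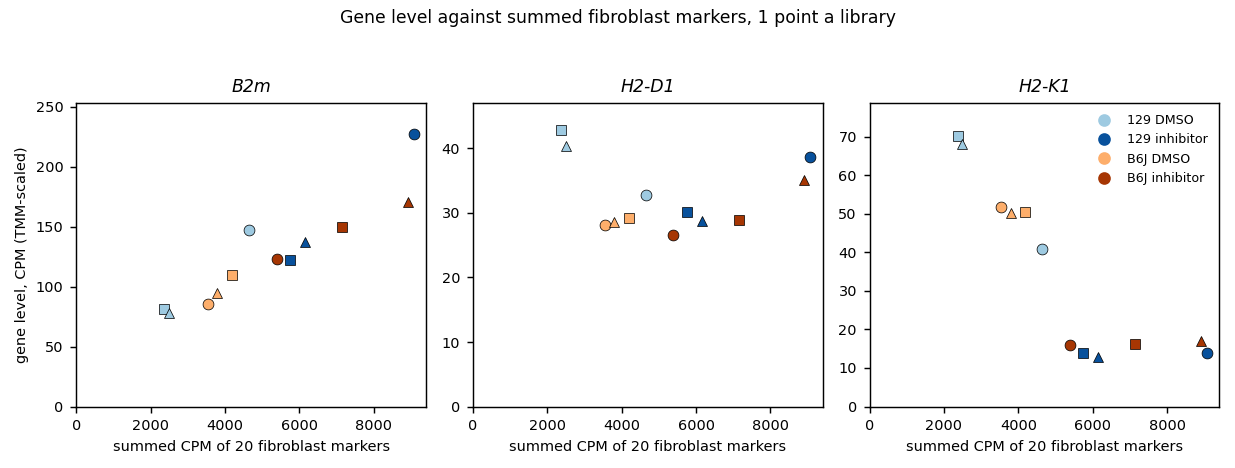
Level of B2m, H2-D1 and H2-K1 (CPM, vertical axes) against the summed CPM of 20 fibroblast markers (horizontal axes), 1 point a library, coloured by group, both axes linear from 0. B2m is highest, at 227 CPM, in the library with the largest marker sum, 9072 CPM, whereas H2-K1 lies between 12.9 and 17.1 CPM in all inhibitor libraries.

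Among the 10 genes the inducible proteasome subunit Psmb8 had the largest fold change in both backgrounds, and Psmb9 fell in both. Psmb8, which takes the place of Psmb5, stood at 11.1, 25.9 and 23.6 CPM in 129 with DMSO and at 0.759, 1.27 and 1.65 CPM with the inhibitor. The B6J levels were 3.20, 2.55 and 3.602 CPM with DMSO and 0.380, 0.353 and 0.620 CPM with the inhibitor, which is 29 to 59 counts a library. The groups were far apart in both backgrounds, and 129 with DMSO was above every other group. The fall was 16.4-fold in 129 (log2 -4.04, SE 0.380, adjusted p = 1.49e-05) and 6.84-fold in B6J (log2 -2.77, SE 0.383, adjusted p = 0.000229).

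Psmb9, which takes the place of Psmb6, stood at 3.35, 8.79 and 9.19 CPM in 129 with DMSO and at 0.994, 1.37 and 1.16 CPM with the inhibitor. B6J libraries gave 3.96, 3.35 and 3.39 CPM with DMSO and 1.29, 1.36 and 1.32 CPM with the inhibitor. All inhibitor libraries lay between 0.994 and 1.37 CPM in the 2 backgrounds. Psmb9 fell 6.04-fold in 129 (log2 -2.59, SE 0.322, adjusted p = 0.00011) and 2.69-fold in B6J (log2 -1.43, SE 0.311, adjusted p = 0.0048). With the fibroblast covariate the B6J value was -0.57 (adjusted p = 0.149).

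The constitutive subunits Psmb5, Psmb6 and Psmb7 passed the test in neither background (0 of 3), with log2 fold changes between -0.18 and 0.15. Of 5 other genes of the inducible proteasome and its activator, 4 fell in 129 and 2 in B6J, beside 18.2% and 16.5% of all genes. Psmb10, the inducible subunit that takes the place of Psmb7, stood at 42.8, 75.8 and 75.1 CPM in 129 with DMSO and 17.4, 17.3 and 18.4 CPM with the inhibitor. In B6J it stood at 25.6, 22.9 and 23.3 CPM with DMSO and 12.2, 13.5 and 16.3 CPM with the inhibitor. The groups did not overlap within either background. Psmb10 fell by 1.87 on the log2 scale in 129 (adjusted p = 2.84e-05) and by 0.77 in B6J (adjusted p = 0.00868).

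Psme1 and Psme2, the PA28 activator subunits, fell by 0.94 and 1.32 on the log2 scale in 129 (adjusted p = 8.44e-05 and 2.73e-05). In B6J Psme2 fell by 0.39 (adjusted p = 0.0438), a call kept in 4 of 12 fits that each left out 1 library, and Psme1 was at -0.29 (adjusted p = 0.0709). Psme3, a nuclear proteasome activator, fell by 0.23 in 129 (adjusted p = 0.0399), kept in 2 of 12 such fits. Without the 4 libraries that stood apart 4 of these 5 genes fell in B6J, and with the fibroblast covariate 0 did. Over all genes these fits called 7583 and 5093 in B6J, against 5166 in the main fit.

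Of the transporter genes, Tap2 fell more than Tap1. Tap2 stood at 8.96, 17.2 and 15.7 CPM in 129 with DMSO and at 2.90, 2.17 and 2.39 CPM with the inhibitor. The B6J levels were 5.53, 4.92 and 5.34 CPM with DMSO and 2.43, 2.51 and 2.98 CPM with the inhibitor. The groups did not overlap within a background, and the inhibitor groups of the 2 backgrounds did overlap. Tap2 fell 5.61-fold in 129 (log2 -2.49, SE 0.227, adjusted p = 1.19e-05) and 1.99-fold in B6J (log2 -0.99, SE 0.219, adjusted p = 0.00507). With the fibroblast covariate the B6J value was -0.71 (adjusted p = 0.0867).

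Tap1 stood at 11.4, 17.5 and 17.0 CPM in 129 with DMSO and at 10.9, 8.39 and 8.69 CPM with the inhibitor. B6J libraries gave 15.03, 11.8 and 14.1 CPM with DMSO and 7.47, 9.61 and 11.7 CPM with the inhibitor. In each background the lowest DMSO library lay just above the highest inhibitor library. Tap1 fell in 129 (log2 -0.71, SE 0.201, adjusted p = 0.0173). That call was lost without replicate 2 or 3 of either 129 group (adjusted p = 0.0594 to 0.067) and with the fibroblast covariate (-0.63, adjusted p = 0.217). In B6J the value was -0.51 (SE 0.201, adjusted p = 0.077), and it passed without replicate 3 of B6J with the inhibitor (-0.66, adjusted p = 0.0444) or replicate 1 of 129 with DMSO (adjusted p = 0.031). Tap1 shares its 275 bases of start region with Psmb9, whose log2 fold changes were -2.59 and -1.43.

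Tapbp, which bridges the transporter and the heavy chain, stood at 72.0, 87.7 and 87.4 CPM in 129 with DMSO and at 42.8, 38.5 and 39.7 CPM with the inhibitor. In B6J it stood at 39.9, 36.9 and 40.1 CPM with DMSO and 33.2, 34.1 and 36.3 CPM with the inhibitor. The 129 DMSO libraries were the high ones, and the other groups lay close together. Tapbp fell 2.04-fold in 129 (log2 -1.03, SE 0.0883, adjusted p = 7.88e-06) and was at -0.17 in B6J (SE 0.0876, adjusted p = 0.162).

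Erap1, the trimming aminopeptidase, stood at 29.9, 52.1 and 51.5 CPM in 129 with DMSO and at 6.27, 7.05 and 6.84 CPM with the inhibitor. The B6J levels were 11.8, 13.8 and 17.8 CPM with DMSO and 5.75, 7.09 and 6.33 CPM with the inhibitor. The inhibitor libraries of both backgrounds shared 1 narrow range, and the DMSO libraries did not. Erap1 fell 6.62-fold in 129 (log2 -2.73, SE 0.217, adjusted p = 4.9e-06) and 2.26-fold in B6J (log2 -1.18, SE 0.208, adjusted p = 0.00127).

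Of 11 other loading and trimming genes tested, 2 fell and 1 rose in 129, and 0 fell and 1 rose in B6J. These counts were near or below the shares over all genes (18.2% fell and 17.4% rose in 129, 16.5% and 14.6% in B6J). Tapbpl (TAPBPR), a tapasin-related peptide editor, stood at 7.48, 14.3 and 12.9 CPM in 129 with DMSO and at 3.49, 4.0 and 3.84 CPM with the inhibitor. B6J libraries gave 3.91, 3.72 and 4.13 CPM with DMSO and 3.04, 4.45 and 4.39 CPM with the inhibitor. Only the 129 DMSO libraries were above this common range. Tapbpl fell by 1.62 on the log2 scale in 129 (adjusted p = 0.000263) and was at 0.02 in B6J (adjusted p = 0.969). Lap3, a leucine aminopeptidase, rose by 0.73 in 129 and 0.70 in B6J (adjusted p = 0.00013 and 0.000165). Calr, calreticulin and the most abundant of these genes, was at 0.27 and 0.35 (adjusted p = 0.251 and 0.163). Without the 4 libraries that stood apart, 5 of these genes rose and 3 fell in 129, and 5 rose and 2 fell in B6J. Over all genes that fit called 8590 in 129 and 7583 in B6J in either direction, against 5930 and 5166 in the main fit.

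Nlrc5, the transactivator, was the least abundant of the 10 per kilobase of exon in every group. It stood at 1.06, 1.26 and 1.26 CPM in 129 with DMSO and at 0.442, 0.770 and 0.593 CPM with the inhibitor. In B6J it stood at 1.04, 0.938 and 1.09 CPM with DMSO and 0.9997, 0.608 and 0.641 CPM with the inhibitor. These are 32 to 90 counts a library, and the B6J groups overlapped. Nlrc5 fell 1.98-fold in 129 (log2 -0.99, SE 0.260, adjusted p = 0.0121) and was at -0.45 in B6J (SE 0.255, adjusted p = 0.206). With the fibroblast covariate the 129 value was -0.35 (adjusted p = 0.479).

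**Figure D3:**
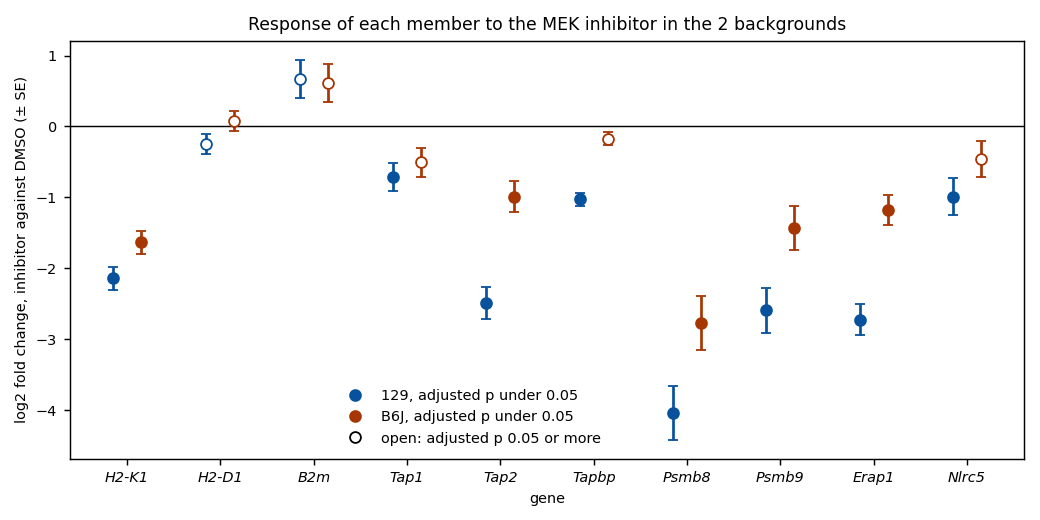
Log2 fold change of each gene with the inhibitor against DMSO (vertical axis, points with SE bars) in 129 (blue) and B6J (brown). Filled points have an adjusted p under 0.05, and the falls run from -0.71 for Tap1 to -4.04 for Psmb8 in 129.

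Ratios of 2 genes within a library do not depend on the scaling of libraries. These ratios were chosen after values had been seen. H2-K1 counts were 125%, 164% and 168% of H2-D1 counts in 129 with DMSO and 35.7%, 46.3% and 44.8% with the inhibitor. In B6J they were 185%, 173% and 175% with DMSO and 60.0%, 56.3% and 48.7% with the inhibitor. H2-K1 counts exceeded H2-D1 counts in all 6 DMSO libraries and in none of the 6 inhibitor libraries. The mean log2 ratio fell by 1.77 (1.85 in 129 and 1.70 in B6J).

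H2-K1 counts were 27.9%, 86.4% and 87.5% of B2m counts in 129 with DMSO and 6.07%, 11.4% and 9.37% with the inhibitor. In B6J they were 60.7%, 46.1% and 53.0% with DMSO and 12.9%, 10.9% and 10.02% with the inhibitor. Every inhibitor library lay below every DMSO library. Averaged over the 2 backgrounds, the log2 ratio fell by 2.51, with changes of -2.782 in 129 and -2.24 in B6J.

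Psmb8 counts were 20.2%, 46.6% and 40.3% of Psmb5 counts in 129 with DMSO and 1.12%, 1.99% and 2.95% with the inhibitor. In B6J they were 3.13%, 2.96% and 4.28% with DMSO and 0.430%, 0.391% and 0.671% with the inhibitor. Averaged over the 2 backgrounds, the log2 ratio fell by 3.49, that of Psmb9 to Psmb6 by 2.01, that of Psmb10 to Psmb7 by 1.18 and that of Tap2 to Tap1 by 1.11. The changes were larger in 129 than in B6J. They were -4.165 and -2.821 for Psmb8 to Psmb5 and -2.587 and -1.437 for Psmb9 to Psmb6. For Psmb10 to Psmb7 they were -1.754 and -0.6097, and for Tap2 to Tap1 -1.747 and -0.475. No test is given for these ratios, since the gene pairs were picked with the pattern known.

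**Figure D4:**
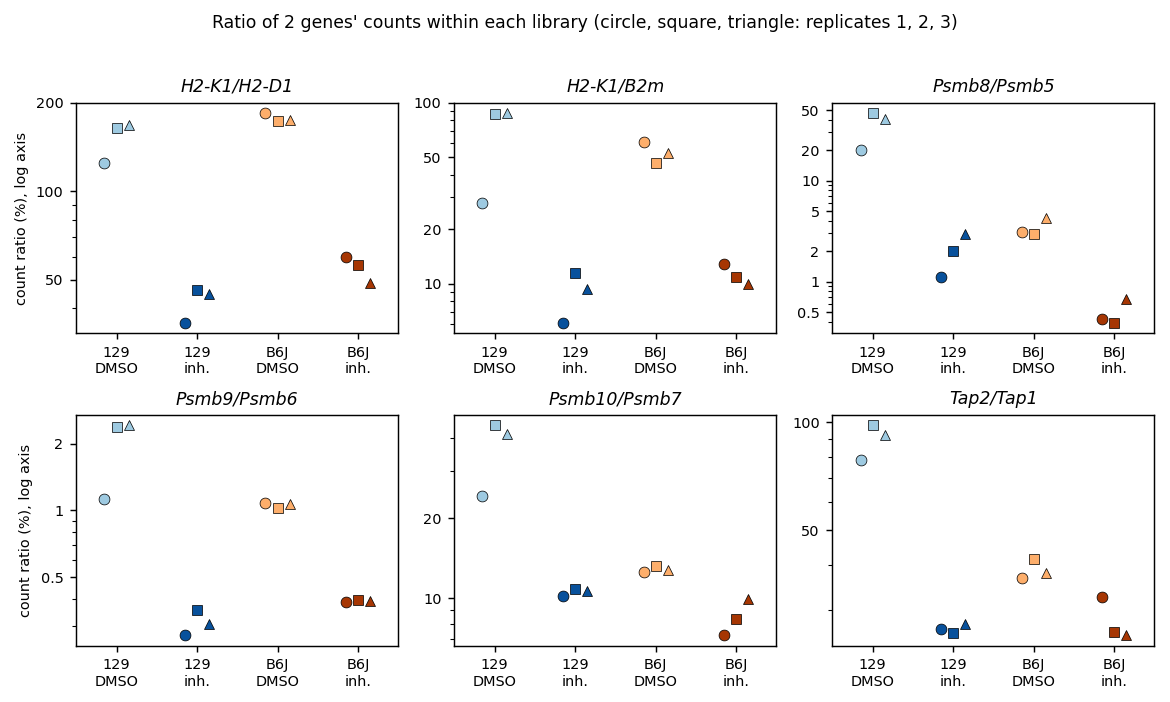
Ratio of the counts of 2 genes within each library, in percent on a log axis, 1 point a library for the 4 groups. All 6 ratios are lower with the inhibitor within each background, and the 129 DMSO libraries stand highest for Psmb8/Psmb5, at 20.2% to 46.6%.

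The 2 backgrounds differed in the size of the fall for 3 of the 10 genes, all falling more in 129. The difference of the responses (B6J minus 129) was 0.86 on the log2 scale for Tapbp (SE 0.124, adjusted p = 0.00736), 1.49 for Tap2 (SE 0.309, adjusted p = 0.0402) and 1.55 for Erap1 (SE 0.292, adjusted p = 0.029). Over all genes tested, 1.48% passed this test in either direction. The Tapbp call was kept in 12 of 12 fits that each left out 1 library (adjusted p at most 0.0312). The Tap2 call was kept in 1 of 12 and the Erap1 call in 2 of 12, with adjusted p up to 0.105 and 0.0993. When replicate number entered as a block, Tap2 had an adjusted p of 0.0872, and with limma-voom Tapbp alone passed.

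The other 7 genes did not pass the test of the difference. The values were 0.51 for H2-K1 (adjusted p = 0.367), 0.32 for H2-D1 (0.563), -0.06 for B2m (0.968), 0.20 for Tap1 (0.82), 0.54 for Nlrc5 (0.609), 1.26 for Psmb8 (0.314) and 1.17 for Psmb9 (0.265). Without replicate 1 of 129 with DMSO, the library with the high primitive endoderm markers, H2-K1 (0.72, adjusted p = 0.00264) and Psmb9 (1.51, adjusted p = 0.00372) passed too, making 5 genes. Without the 4 libraries that stood apart 6 of the 10 passed. Over all genes, 586 passed without that replicate and 2059 without the 4 libraries, against 246 in the main fit. Among the other pathway genes Psme2 (0.93, adjusted p = 0.0364) and Tapbpl (1.63, adjusted p = 0.0337) passed, calls kept in 1 and 2 of the 12 fits that left out a library.

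With DMSO, 6 of the 10 genes were lower in B6J than in 129 and 0 were higher, while 20.9% of all genes tested differed in either direction. Psmb8 was 6.47-fold lower (log2 -2.69, SE 0.353, adjusted p = 0.000281), Erap1 3.08-fold (-1.62, SE 0.208, adjusted p = 0.000235), Tap2 2.65-fold (-1.41, SE 0.218, adjusted p = 0.000867) and Tapbp 2.12-fold (-1.08, SE 0.0884, adjusted p = 8.33e-06). These 4 calls were kept in 12 of 12 fits that left out 1 library. Psmb9 (-0.995, adjusted p = 0.0366, with overlapping groups) and H2-D1 (-0.43, adjusted p = 0.0491) were kept in 5 and 4 of the 12. H2-K1, Tap1, B2m and Nlrc5 were between -0.23 and -0.08, with adjusted p of at least 0.346, and H2-K1 passed without replicate 1 of 129 with DMSO (-0.44, adjusted p = 0.00105). These comparisons share their DMSO libraries with the responses above.

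With the inhibitor, 1 of the 10 genes differed between the backgrounds, while 18.4% of all genes tested did. Psmb8 was 2.699-fold lower in B6J (log2 -1.43, SE 0.384, adjusted p = 0.0223), kept in 8 of 12 fits that left out 1 library. It was lost without replicate 2 or 3 of 129 or replicate 1 or 2 of B6J (adjusted p up to 0.101) and with limma-voom (adjusted p = 0.233). H2-K1 (0.28, adjusted p = 0.00847) and Tapbp (-0.22, adjusted p = 0.0353) passed without replicate 1 of 129 with DMSO. The median log2 difference of the 10 genes was -0.71 with DMSO and -0.02 with the inhibitor. Without the 4 libraries that stood apart 3 of the 10 differed, while the genes called over all rose from 3053 to 5757.

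Levels per kilobase of exon place the genes on 1 scale, with the length taken as the union of all annotated exons of a gene. That union runs from 860 bases for B2m to 8493 for Nlrc5 and can be longer than the transcript in use. The order of the genes depends on these lengths, and the SDs below do not cover an error in them. In 129 with DMSO, B2m stood at 119 ± 45.4 CPM per kilobase (SD, n = 3 here and below), Tapbp at 22.7 ± 2.48, H2-K1 at 20.3 ± 5.53 and H2-D1 at 14.98 ± 2.04. Erap1 followed at 6.12 ± 1.74, Psmb8 at 5.97 ± 2.36, Tap2 at 3.69 ± 1.16, Tap1 at 2.79 ± 0.622, Psmb9 at 1.94 ± 0.892 and Nlrc5 at 0.141 ± 0.0140. Neighbours in this order lay within an SD of each other except at the steps from B2m to Tapbp, from H2-D1 to Erap1 and from Psmb9 to Nlrc5. In B6J with DMSO, B2m stood at 112 ± 14.2, H2-K1 at 17.3 ± 0.305, H2-D1 at 11.1 ± 0.222 and Tapbp at 10.7 ± 0.494 CPM per kilobase. Tap1 at 2.49 ± 0.303, Erap1 at 1.99 ± 0.417, Tap2 at 1.39 ± 0.0820, Psmb9 at 0.974 ± 0.0946, Psmb8 at 0.922 ± 0.157 and Nlrc5 at 0.121 ± 0.00930 followed. There H2-D1 and Tapbp, and Psmb9 and Psmb8, lay within an SD of each other.

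The order changed with the inhibitor. In B6J with the inhibitor B2m stood at 172 ± 27.8 CPM per kilobase, H2-D1 at 11.7 ± 1.73, Tapbp at 9.52 ± 0.440 and H2-K1 at 5.59 ± 0.214. Tap1 at 1.75 ± 0.386 then stood above Erap1 at 0.877 ± 0.0926 and Tap2 at 0.698 ± 0.0795, with Psmb9 at 0.362 ± 0.00972, Psmb8 at 0.133 ± 0.0435 and Nlrc5 at 0.0883 ± 0.0256. Each step in this order was larger than the SD of either neighbour. In 129 with the inhibitor the order was the same apart from the neighbours Psmb8 (0.362 ± 0.132) and Psmb9 (0.322 ± 0.0520), which lay within an SD of each other. There H2-D1 stood at 12.6 ± 2.07 and Tapbp at 11.1 ± 0.602, also within an SD, and H2-K1 at 4.61 ± 0.195 CPM per kilobase. H2-K1 stood above H2-D1 with DMSO in both backgrounds, in 129 by less than its own SD, and below it with the inhibitor.

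Other class I and class I-like genes moved in both directions. Of 16 tested of 17 in the table, 9 fell and 5 rose in 129, and 7 fell and 6 rose in B6J. Over all genes, 18.2% fell and 17.4% rose in 129, and 16.5% fell and 14.6% rose in B6J. The H2-Q genes H2-Q2, H2-Q4, H2-Q6, H2-Q7 and H2-Q10 fell in both. H2-Q4 went from 8.52, 15.4 and 14.3 CPM to 2.08, 1.92 and 2.27 CPM in 129 and from 8.12, 8.34 and 10.6 CPM to 2.85, 2.49 and 3.58 CPM in B6J. No inhibitor library reached a DMSO library. The log2 fold changes were -2.61 (adjusted p = 1.01e-05) and -1.60 (adjusted p = 0.000251) for H2-Q4, -3.33 and -2.92 for H2-Q7 and -3.80 and -3.15 for H2-Q2. H2-M3, which presents formylated peptides, fell by 1.39 and 0.90. Because these genes resemble each other and H2-K1 and H2-D1, their counts could be split by the counting and are uncertain.

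H2-M5, the most abundant gene of that list, rose by 1.34 in 129 and 1.38 in B6J (adjusted p = 2.12e-06 and 2.35e-06). H2-T3 encodes the thymus leukaemia antigen. It was at most 0.0840 CPM in 129 and stood at 1.40, 1.27 and 0.715 CPM in B6J with DMSO and 4.11, 3.49 and 3.15 CPM with the inhibitor. It rose in B6J by 1.66 (adjusted p = 0.00634). Reads of both backgrounds were aligned to the same mm10 reference, and how well 129 reads map to H2-T3 was not tested. H2-T22 was at -0.63 in 129 (adjusted p = 0.0155, a fall) and -0.44 in B6J (adjusted p = 0.077), and H2-T23 (Qa-1) was at 0.42 and 0.58 (adjusted p = 0.183 and 0.0818). Without the 4 libraries that stood apart 3 genes of this list rose and 10 fell in 129, and 6 rose and 8 fell in B6J. That fit called 8590 genes in 129 and 7583 in B6J over all genes.

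Of 23 regulators of class I transcription, 7 fell and 6 rose in 129, and 4 fell and 6 rose in B6J. Of all genes tested, 18.2% fell and 17.4% rose in 129, and 16.5% fell and 14.6% rose in B6J, so the falls in B6J were near that share. Irf1, an interferon regulatory factor that acts on class I and proteasome genes, stood at 48.4, 89.8 and 86.7 CPM in 129 with DMSO and at 27.3, 29.0 and 29.4 CPM with the inhibitor. The B6J levels were 39.4, 35.5 and 38.3 CPM with DMSO and 29.7, 25.6 and 25.1 CPM with the inhibitor. The groups did not overlap within a background, and 129 with DMSO was highest. Irf1 fell by 1.39 in 129 (adjusted p = 0.000183) and was at -0.49 in B6J (adjusted p = 0.0614). Its difference between the responses was 0.90 (adjusted p = 0.133).

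Of the RFX complex that binds class I promoters with Nlrc5, Rfxap fell by 0.46 and 0.83 (adjusted p = 0.0118 and 0.000359) and Rfx5 fell by 0.48 in 129 (adjusted p = 0.0155). Rfx5 was at -0.18 in B6J (adjusted p = 0.331) and Rfxank at -0.20 and -0.06 (adjusted p = 0.114 and 0.66). Irf8 fell by 1.19 and 1.79, and Nfkb2, an NF-kB subunit, by 0.81 and 0.65. Eed, a Polycomb subunit and the most abundant of the list, rose by 0.36 and 0.31. Without the 4 libraries that stood apart 7 regulators fell and 7 rose in B6J, and 9 fell and 8 rose in 129. That fit called 7583 genes in B6J and 8590 in 129 over all genes.

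The interferon genes Ifnb1 and Ifng had 0 counts in all 12 libraries. Of 13 genes tested among interferon and TNF ligands and receptors, 3 fell and 3 rose in 129, and 1 fell and 2 rose in B6J. The shares over all genes were 18.2% falling and 17.4% rising in 129, and 16.5% and 14.6% in B6J. Tnf fell by 2.03 in 129 (adjusted p = 0.00658), from a mean of 0.494 ± 0.118 CPM, and Socs1, an inhibitor of cytokine signalling, fell by 0.75 in 129 and 0.52 in B6J (adjusted p = 0.0064 and 0.0409). The Socs1 call in B6J was kept in 4 of 12 fits that left out 1 library. Tnfrsf1a, a TNF receptor, rose by 0.91 in 129 (adjusted p = 0.01), and with the fibroblast covariate this became -0.02. Of 6 MHC class II genes tested, 2 fell and 2 rose in 129 and 2 rose in B6J. Except for Cd74, their group means were at most 3.18 CPM.

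**Figure D5:**
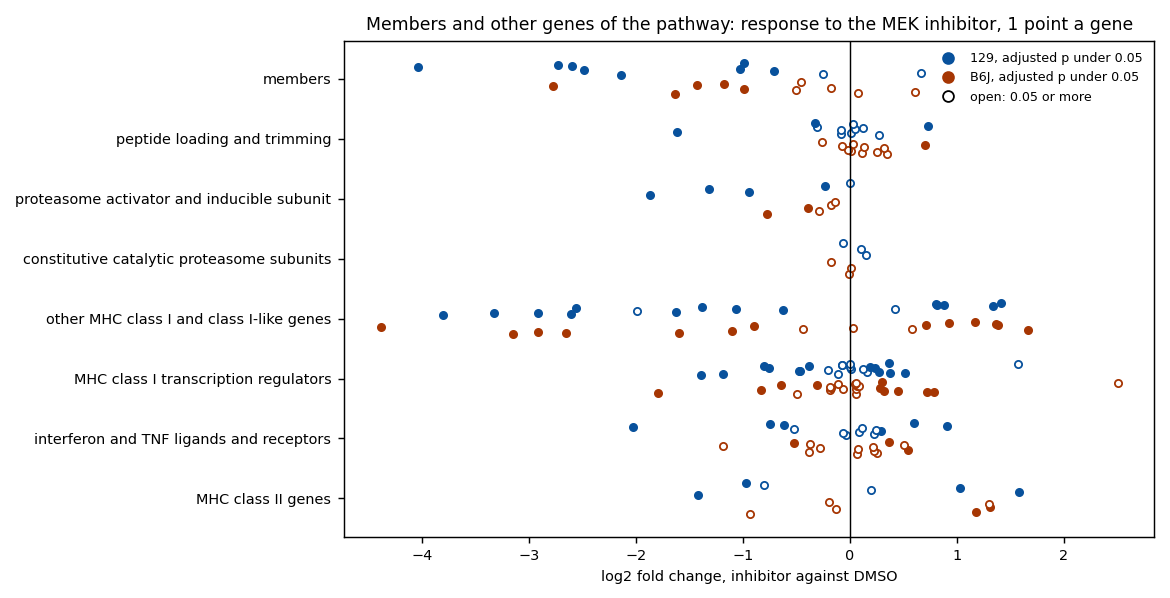
Log2 fold change with the inhibitor against DMSO (horizontal axis), 1 point a gene, for the 10 members and 7 lists of related genes, in 129 (blue) and B6J (brown), with points filled where adjusted p is under 0.05. Members and inducible proteasome genes lie mostly left of 0, the 3 constitutive subunits near 0, and other class I genes on both sides.

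The genes most like the 10 in their pattern across libraries were found by Pearson's r with the mean z-score of the 10, over 12 libraries and 10760 genes of at least 5 CPM. They were Psmb10 (r = 0.978), Agpat3 (0.977), Parp9 (0.971), Psme1 (0.969), Prickle1 (0.969), Setd4 (0.969), Igfbp3 (0.959) and Oasl2 (0.959). Within 129 their r was 0.971 to 0.999 and within B6J 0.813 to 0.993, each over 6 libraries. The libraries share the treatment and background contrasts, so these values are descriptions. Among the 10 genes themselves Tap2 (0.995), Erap1 (0.978) and Psmb8 (0.951) followed the mean most closely. H2-D1 (0.675) did so least of the positive ones, and B2m ran against it (-0.626). Each of the 10 is itself part of that mean, which raises its r, so these values cannot be set beside those of the other genes.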

How the data were processed

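RNA from 12 libraries of mouse ES cells was counted per gene by the authors, and the deposited values are raw counts. Per the submitters' processing notes the tools were STAR 2.7.10, SAMtools, HTSeq 0.6.1p1 and DESeq with mm10 (GRCm38). The annotation, strand setting and multi-mapper rule were not given in the sources used here. Between 70.1% and 73.4% of counts from 1 to 20 in a library were even, against 52.1% to 55.2% of counts from 101 to 1000, so halved counts were an alternative.

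Genes passing edgeR 4.0.16 filterByExpr (minimum count 10) were kept, 16627 of 26742. All 12 libraries entered 1 TMM-scaled quasi-likelihood fit with 4 group means and 5 contrasts, with Benjamini-Hochberg adjustment over all genes. DESeq2 1.42.0, limma-voom 3.58.1 and the other alternatives are in the closing part. The 10 genes are all named. From each list up to 4 called genes with the largest change were eligible, with fixed partners such as Psmb5, Irf1 and H2-T22. The most abundant gene of a list was eligible too. Not every eligible gene is reported here. Members and lists were chosen with earlier results of these data known. Gene positions and overlaps are from GENCODE M21, in which 26656 of the 26742 identifiers were found. No 2 libraries of the same group were duplicates within sampling noise.

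Replicate numbers in the labels were checked as pairs. Deviations of same-numbered DMSO and inhibitor libraries correlated at 0.442, 0.295 and 0.222 in 129, and at -0.188, 0.0883 and -0.17 in B6J. By this check the numbers looked like pairs in 129, where all 3 were above 0.1, and not in B6J. The main fit used no replicate block in either background, so its 129 p-values do not use this pairing. Fits with replicate number as a block were run as alternatives only. In 129 the differently numbered libraries 2 and 3 correlated at 0.209 and 0.194, so that beyond replicate 1 the numbers hardly separate the pairs.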

Additional observations from a re-analysis of the deposited data

Results flagged for a closer look

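The 3 genes Tap2, Tapbp and Erap1 were picked out because their response to the MEK inhibitor differed between the 129 and B6J backgrounds in a test of the difference itself. The log2 difference of the responses (B6J minus 129) was 1.49 for Tap2 (edgeR adjusted p = 0.0402), 0.86 for Tapbp (adjusted p = 0.00736) and 1.55 for Erap1 (adjusted p = 0.029). In each case the fall was larger in 129, in which the DMSO libraries were higher, and the inhibitor libraries of the 2 backgrounds lay close together.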

How the results depend on the processing

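The falls of H2-K1, Psmb8 and Erap1 in both backgrounds, of Tap2, Tapbp and Psmb9 in 129, and the difference of responses for Tapbp kept their direction and their call under all alternatives run. The 8 called members in 129 stayed within 1.5 times under all of them. In B6J, 3 members were called with the fibroblast covariate, 8 without both 129 libraries numbered 1 and 8 without the 4 libraries that stand apart. Over all genes these fits called 5093, 7012 and 7583, against 5166 in the main fit. For the difference of responses, members called were 1 with limma-voom, 5 without both 129 libraries numbered 1, 6 without the 4 apart, and 1 to 5 when 1 library was left out. Genes called in that contrast were 246, against 800 with DESeq2, 163 with limma-voom, 156 with the replicate block, 814 with the covariate, 608 without both, 2059 without the 4 apart, and 73 to 586 when 1 library was left out. Between backgrounds with DMSO, genes called went from 3468 to 2241 with only those groups fitted and 6493 without the 4 apart. With the inhibitor they went from 3053 to 5757 without the 4 apart, and members called were 0 with limma-voom, 2 without both, 3 without the 4 apart and 0 to 3 when 1 library was left out.

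Some directions turned. With the fibroblast covariate B2m, 0.67 in 129 and 0.61 in B6J, became -0.45 in 129 (adjusted p = 0.0154), -0.22 in B6J and 0.23 for the difference, Nlrc5 in B6J became 0.0134, Psme3 in 129 0.00931 and Tnfrsf1a in 129, which had risen by 0.91, -0.0243. H2-D1 in B6J became -0.0739 without the 4 apart and ranged from -0.0421 to 0.19 when 1 library was left out. For B6J minus 129 with DMSO, B2m became 0.28 without both 129 libraries numbered 1 and 0.36 without the 4 apart (adjusted p = 0.0163), with a range of -0.24 to 0.28 when 1 library was left out. With the inhibitor, B2m became 0.19 without both and 0.0557 without the 4 apart (range -0.31 to 0.18), H2-D1 0.0370 without both (range -0.24 to 0.0303) and Tap1 -0.0141 without the 4 apart (range -0.14 to 0.20). There Tap2 ranged from -0.0231 to 0.20 and Erap1 from -0.16 to 0.00373, and the B2m difference of responses from -0.42 to 0.27. The cause of these changes was not tested.

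With the replicate block over all libraries Tap2 lost its call for the difference of responses (1.46, adjusted p = 0.0872) and H2-D1 and Psmb9 theirs between backgrounds with DMSO (-0.43 and -0.92, adjusted p = 0.0849 and 0.0653). Psme2 lost its call in B6J and for the difference of responses. The block changed no other call of a member. All 6 ratios kept their direction without each library in turn. Counts of 29 to 59 for Psmb8 and 50 to 79 for Nlrc5 in B6J with the inhibitor limit what can be seen there.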
